A study of Homo sapiens with 6 samples.

Results

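The phosphatidylcholine branch was described here through 8 genes, the choline carriers SLC44A1 and SLC44A2, the choline kinases CHKA and CHKB, the cytidylyl transferases PCYT1A and PCYT1B, the cholinephosphotransferase CHPT1 and the phosphatidylethanolamine methyltransferase PEMT. They were chosen by symbol, matched to Ensembl identifiers through GENCODE release 29, and make up 8 of the 19746 genes in the tables. RNA-Seq had been performed in SW480, an established human colorectal cancer line, to look into how PCYT2, as the authors put it, suppresses metastasis. PCYT2 is the cytidylyl transferase of the phosphatidylethanolamine branch. In the study's methods, PCYT2 hairpins were cloned into pLKO.1, and infected colorectal cancer cells were selected with puromycin. The methods text does not give the vector of the nontargeting hairpin. No group of untreated cells was analysed here. The groups were shNT (a nontargeting hairpin, 2 libraries), shPcyt2-1 (2 libraries) and shPcyt2-2 (2 libraries), the latter 2 carrying different hairpins against PCYT2 in a selected population, not in a knockout. Levels are in FPKM, a count of fragments divided by the length of the gene and by the size of the library. The unit was inferred from the values, and a comparison between genes is per length.

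Phosphatidylcholine is the main phospholipid of most human membranes. In the CDP-choline pathway, choline enters the cell, is phosphorylated by a choline kinase, is activated with CTP by a cytidylyl transferase, a step that often limits the rate, and is then moved onto diacylglycerol. Most cells rely on that pathway, while PEMT, best known from liver, makes phosphatidylcholine by methylating phosphatidylethanolamine and so draws on the product of the PCYT2 branch.

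The depth of the libraries in reads is unknown, and summed values lay between 396467 and 402612 FPKM per library. Nothing in the labels says that replicates were separate cultures, so p-values measure the spread between these libraries, which may be technical. In RNA from a whole population, fewer cells with a transcript and less RNA per cell cannot be told apart. Of 7 colon epithelial markers, 6 were at 1 FPKM or more in every library, and KRT20 did not pass 0.0950 FPKM in any. Among 6 markers of other cell types, 3 were at 1 FPKM or more in every library, the hepatocyte gene ALB (3.52 to 7.19 FPKM), the smooth muscle gene ACTA2 (2.94 to 3.79 FPKM) and the fibroblast gene COL1A1 (1.03 to 1.68 FPKM), and ALB had the highest mean. The leukocyte marker PTPRC was the 1 of the 6 with no value above 0 in any library.

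PCYT2, the targeted gene (ENSG00000185813, chromosome 17, 81900965 to 81911464, minus strand, GRCh38, the build of all gene positions given), stood at 11.6 and 13.8 FPKM in shNT, 7.11 and 7.36 FPKM in shPcyt2-1, and 6.71 and 6.18 FPKM in shPcyt2-2. Both hairpin groups lay below both shNT libraries. On the log2(FPKM + 1) scale, on which all fold changes here were fitted with limma and on which changes of low genes are understated, PCYT2 fell by 0.73 with shPcyt2-1 (adjusted p = 0.00205, limma) and by 0.88 with shPcyt2-2 (adjusted p = 0.00261, limma).

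Across the branch, PEMT fell with both hairpins and PCYT1A rose with shPcyt2-2. Of 14 alternative fits, the PEMT call held in 8 with shPcyt2-1 and 13 with shPcyt2-2, and the PCYT1A call in 10. The fit with the highest of repeated rows is among them, and it left the members' own values unchanged, as no member has repeated rows. The carriers, both choline kinases and CHPT1 did not pass the test with either hairpin. PCYT1B was close to 0 FPKM throughout and was not tested. With shPcyt2-1, 1 of the 7 tested members was lower and 0 were higher at an adjusted p under 0.05, where 26.7% of all 12756 tested genes were called, 10.1% lower and 16.5% higher. With shPcyt2-2, 1 member was lower and 1 higher, where 12.4% of all tested genes were called, 4.74% lower and 7.69% higher. The median log2 fold change of the tested members was -0.02 with shPcyt2-1 and 0.07 with shPcyt2-2, beside 0.07 and 0.04 over all tested genes. Members whose hairpin libraries did not overlap shNT numbered 3 of 7 with shPcyt2-1 and 4 of 7 with shPcyt2-2, beside 69% and 57.5% of all tested genes.

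**Figure D1:**
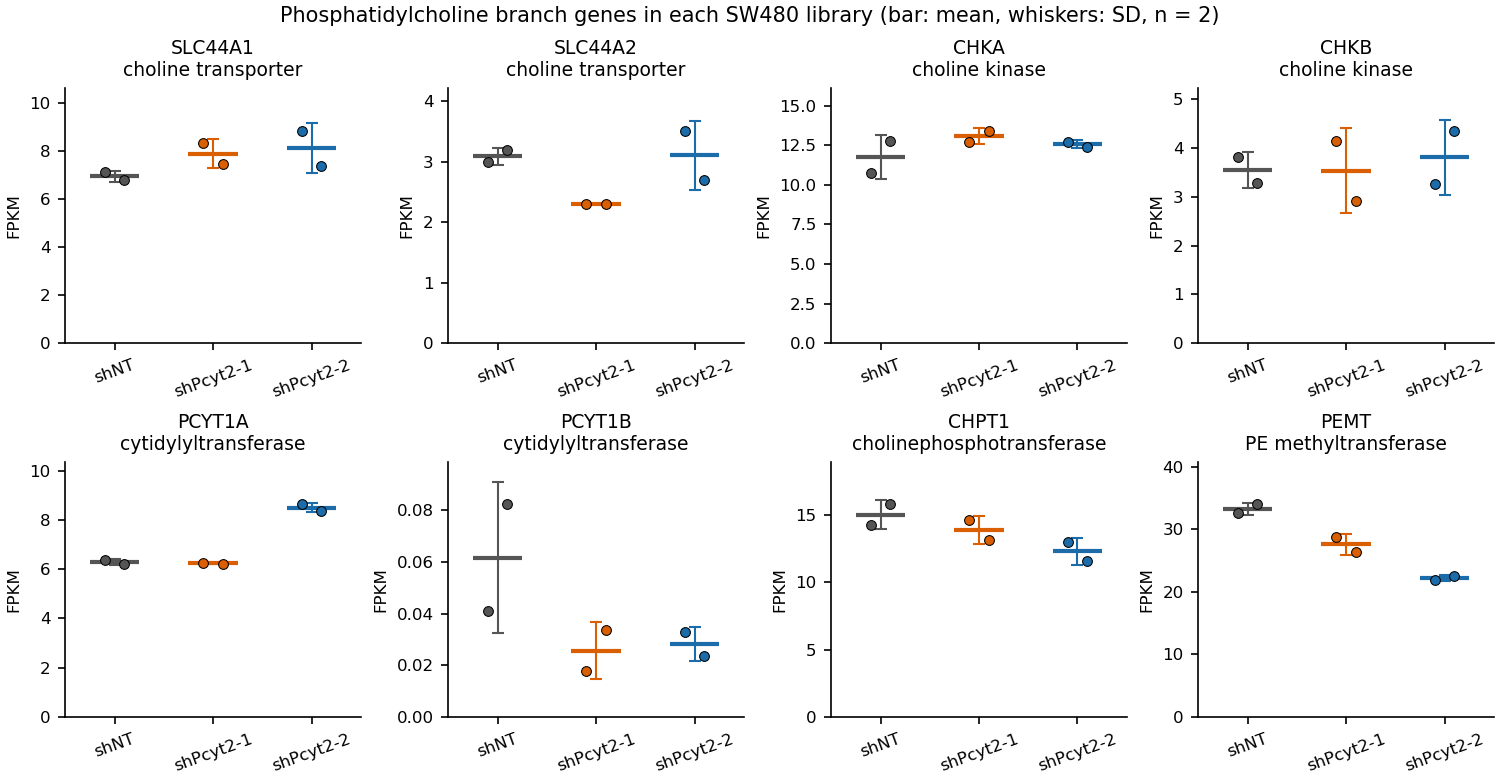
FPKM (vertical axes, each from 0) of the 8 phosphatidylcholine branch genes in the shNT, shPcyt2-1 and shPcyt2-2 libraries, with 1 point per library, a bar at the mean and whiskers of 1 SD (n = 2). PEMT goes from 33.3 FPKM in shNT to 27.6 and 22.2 FPKM, and PCYT1A is at 6.28 and 6.23 FPKM in shNT and shPcyt2-1 but at 8.50 FPKM in shPcyt2-2.

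In shNT, the members ran in the order PEMT, CHPT1, CHKA, SLC44A1, PCYT1A, CHKB, SLC44A2 and PCYT1B. PEMT, at 33.3 ± 1.01 FPKM (SD, n = 2), was above 85.0% of all tested genes and 2.21 times as high as CHPT1 at 15.1 ± 1.07 FPKM (SD, n = 2). SLC44A1 and PCYT1A were neighbours with means 1.10 times apart. The loci of PCYT1A and CHPT1 overlap the genes SLC51A and SYCP3, and that of PCYT2 overlaps ANAPC11 and NPB. PEMT, CHKA and PCYT1B overlap annotated genes too, 3, 1 and 2 of them. The counting is not stated to use strand, so some of their reads are uncertain. In shNT alone no pair of neighbours in that order overlapped, but over all 6 libraries CHPT1 overlapped CHKA, SLC44A1 overlapped PCYT1A, and CHKB overlapped SLC44A2. The gap from SLC44A2 to PCYT1B was 50.1 times.

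Of the carriers, SLC44A1 (ENSG00000070214, chromosome 9, 105244622 to 105439171, plus strand) takes choline up across the plasma membrane and the mitochondrial membrane. It stood at 7.09 and 6.77 FPKM in shNT, 8.30 and 7.45 FPKM in shPcyt2-1, and 8.83 and 7.37 FPKM in shPcyt2-2. All 4 knockdown libraries lay above both shNT libraries, yet neither hairpin passed the test, with log2 fold changes of 0.16 (95% interval -0.08 to 0.40, adjusted p = 0.280, limma) and 0.19 (-0.04 to 0.43, adjusted p = 0.243, limma). With the trend on GC content and length removed these values were -0.03 and -0.01, so its direction depends on that choice.

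SLC44A2 (ENSG00000129353, chromosome 19, 10602457 to 10644559, plus strand), a choline transporter-like protein of the same family, was at 2.99 and 3.18 FPKM in shNT. It was at 2.30 FPKM in both shPcyt2-1 libraries, and at 3.51 and 2.70 FPKM in shPcyt2-2. The shPcyt2-1 libraries lay below all others, and the shPcyt2-2 libraries lay on either side of shNT. The log2 fold change was -0.31 (standard error 0.12, 95% interval -0.57 to -0.04) with shPcyt2-1, and its adjusted p of 0.0847 (limma) missed the threshold. That call was gained under 4 of 14 alternatives, among them leaving out shPcyt2-2 replicate 1 (adjusted p = 0.0491, limma) or replicate 2 (adjusted p = 0.0493, limma). With shPcyt2-2 the log2 fold change was 0.00 (95% interval -0.27 to 0.27).

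CHKA (ENSG00000110721, chromosome 11, 68052859 to 68121444, minus strand) is the choline kinase most often linked to tumour growth. Its level was 10.8 and 12.7 FPKM in shNT, 12.7 and 13.4 FPKM in shPcyt2-1, and 12.7 and 12.4 FPKM in shPcyt2-2, and 1 shPcyt2-1 library lay above the shNT range while the other 3 knockdown libraries lay within it. The log2 fold change was 0.15 with shPcyt2-1 (95% interval -0.07 to 0.36, adjusted p = 0.271, limma). With shPcyt2-2 it was 0.09 (-0.12 to 0.30, adjusted p = 0.534, limma). Over 14 alternatives the values ran from 0.02 to 0.26 with shPcyt2-1 and from -0.02 to 0.20 with shPcyt2-2.

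CHKB (ENSG00000100288, chromosome 22, 50578949 to 50601455, minus strand), the second choline kinase, varied between replicates in every group. Its 6 libraries read 3.82 and 3.29 FPKM in shNT, 4.15 and 2.93 FPKM in shPcyt2-1, and 3.26 and 4.36 FPKM in shPcyt2-2. No group was set apart from another. CHKB shares its locus with CHKB-CPT1B, a readthrough gene whose transcripts run on into CPT1B, and with 3 further annotated genes. CHKB-CPT1B stood at 0.484 and 0.535 FPKM in shNT, at 0 and 0.888 FPKM in shPcyt2-1, and at 0.4003 and 0 FPKM in shPcyt2-2. The 2 libraries in which the readthrough gene had no value above 0, shPcyt2-1 replicate 1 and shPcyt2-2 replicate 2, were those with the most CHKB. With both added, the group means were 4.06 ± 0.337 FPKM in shNT, 3.98 ± 0.239 FPKM in shPcyt2-1 and 4.01 ± 0.492 FPKM in shPcyt2-2 (SD, n = 2 each). Reads of the shared exons can go to either gene, so each is uncertain alone. The log2 fold change of CHKB itself was -0.02 with shPcyt2-1 (95% interval -0.37 to 0.34, adjusted p = 0.953, limma) and 0.07 with shPcyt2-2 (-0.28 to 0.43, adjusted p = 0.789, limma), and with the readthrough gene added the value for shPcyt2-2 was -0.02.

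**Figure D2:**
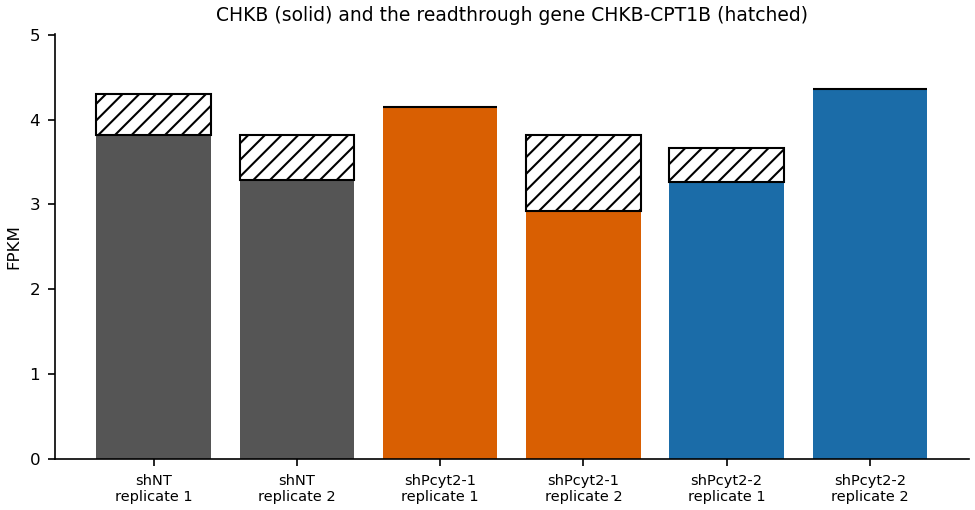
FPKM (vertical axis, from 0) of CHKB (solid) with the readthrough gene CHKB-CPT1B stacked on it (hatched) in each of the 6 libraries. CHKB alone runs from 2.93 to 4.36 FPKM, and the stacked sum from 3.66 to 4.36 FPKM.

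PCYT1A (ENSG00000161217, chromosome 3, 196214222 to 196287957, minus strand) encodes the main cytidylyl transferase of the pathway, an enzyme that is switched on by binding to membranes. Its level was 6.37 and 6.20 FPKM in shNT, 6.25 and 6.22 FPKM in shPcyt2-1, and 8.63 and 8.37 FPKM in shPcyt2-2. Both shPcyt2-2 libraries stood above the other 4, which lay close together. With shPcyt2-2 PCYT1A rose by 35.3% of its mean FPKM, a log2 fold change of 0.38 (standard error 0.09, 95% interval 0.19 to 0.58, adjusted p = 0.0237, limma), larger in size than that of 90.3% of all tested genes. That rank is on the log2(FPKM + 1) scale, which understates low genes. GPCPD1, for example, rose by 72.4% of its mean FPKM with shPcyt2-2 and ranked above 87.6%. With shPcyt2-1 the log2 fold change of PCYT1A was -0.01 (95% interval -0.20 to 0.18, adjusted p = 0.949, limma). The difference between the hairpins was 0.39 (standard error 0.09, adjusted p = 0.00980, limma). The shPcyt2-2 call was lost with no filter on low values (0.38, adjusted p = 0.0680, limma), without shNT replicate 2 (0.37, adjusted p = 0.104, limma), without shPcyt2-2 replicate 1 (0.36, adjusted p = 0.116, limma) and without shPcyt2-2 replicate 2 (0.40, adjusted p = 0.0651, limma), and the difference without shPcyt2-1 replicate 1 (0.39, adjusted p = 0.0714, limma) or replicate 2 (0.39, adjusted p = 0.0656, limma).

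PCYT1B (ENSG00000102230, chromosome X, 24558087 to 24672677, minus strand), the second cytidylyl transferase gene, is known mainly from brain and gonads. It read 0.0409 and 0.0822 FPKM in shNT, 0.0179 and 0.0335 FPKM in shPcyt2-1, and 0.0327 and 0.0237 FPKM in shPcyt2-2. These levels were far under the 0.5 FPKM mean needed for the test, and no fold change is given for it.

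CHPT1 (ENSG00000111666, chromosome 12, 101696947 to 101744140, plus strand), which joins the activated choline head group to diacylglycerol in the Golgi, was at 14.3 and 15.8 FPKM in shNT, 14.7 and 13.2 FPKM in shPcyt2-1, and 13.0 and 11.6 FPKM in shPcyt2-2. The shPcyt2-2 libraries lay below the other 4, and the shPcyt2-1 libraries overlapped shNT. The log2 fold change was -0.11 with shPcyt2-1 (95% interval -0.32 to 0.11, adjusted p = 0.431, limma) and -0.27 with shPcyt2-2 (-0.48 to -0.06, adjusted p = 0.0898, limma). The latter passed under median-ratio scaling (-0.32, adjusted p = 0.0404, limma) and with the trend on GC content and length removed (-0.35, adjusted p = 0.0300, limma).

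PEMT (ENSG00000133027, chromosome 17, 17505563 to 17591708, minus strand) was the most abundant member and the 1 called with both hairpins. Its level was 32.6 and 34.0 FPKM in shNT, 28.8 and 26.4 FPKM in shPcyt2-1, and 21.9 and 22.6 FPKM in shPcyt2-2. The 3 groups did not overlap and ran downward in that order. With shPcyt2-1 PEMT fell by 17.04% of its mean FPKM (log2 fold change -0.26, standard error 0.07, 95% interval -0.43 to -0.10, adjusted p = 0.0290, limma), a size larger than that of 65.8% of all tested genes. With shPcyt2-2 it fell by 33.2% (log2 fold change -0.56, standard error 0.07, 95% interval -0.72 to -0.40, adjusted p = 0.00426, limma), larger in size than 97.3% of all tested genes. Both ranks are on the log2(FPKM + 1) scale, which understates changes of low genes. PEMT was lower with shPcyt2-2 than with shPcyt2-1, at -0.30 (standard error 0.07, adjusted p = 0.0160, limma).

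The shPcyt2-2 call of PEMT was lost without shPcyt2-2 replicate 1 (-0.54, adjusted p = 0.0549, limma) and held under the other 13 alternatives. The shPcyt2-1 call was lost under 6 of 14, among them without shNT replicate 2 (-0.23, adjusted p = 0.102, limma), without shPcyt2-1 replicate 1 (-0.32, adjusted p = 0.0761, limma) and without shPcyt2-1 replicate 2 (-0.20, adjusted p = 0.209, limma), with values between -0.34 and -0.13 throughout. The smallest came with the trend on GC content and length removed (-0.13, adjusted p = 0.158, limma), and the call was also lost with no filter on low values (adjusted p = 0.0569, limma) and with no variance trend (adjusted p = 0.0556, limma). The difference between the hairpins was lost without shPcyt2-1 replicate 1 (-0.24, adjusted p = 0.160, limma), shPcyt2-2 replicate 1 (-0.28, adjusted p = 0.0788, limma) or shPcyt2-2 replicate 2 (-0.32, adjusted p = 0.0580, limma). Summed FPKM of the 7 colon epithelial markers, of which KRT8 is the most abundant, were 7194 and 7676 in shNT, 7354 and 7406 in shPcyt2-1, and 5516 and 5744 in shPcyt2-2, and the 6 markers of other cell types summed to 8.43 to 11.3 FPKM. Within the list, KRT8 averaged 3731 FPKM in shNT and 2804 FPKM in shPcyt2-2 and KRT18 averaged 3364 and 2459 FPKM, while EPCAM (269 and 291 FPKM), VIL1 (39.0 and 43.0 FPKM) and CDH1 (14.9 and 17.1 FPKM) were not lower. CDX2 averaged 16.2 FPKM in shNT, 9.94 FPKM in shPcyt2-1 and 15.6 FPKM in shPcyt2-2, so it was lowest in the group in which the sum was not. The part of these markers in the values of PEMT and PCYT1A was not tested.

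**Figure D3:**
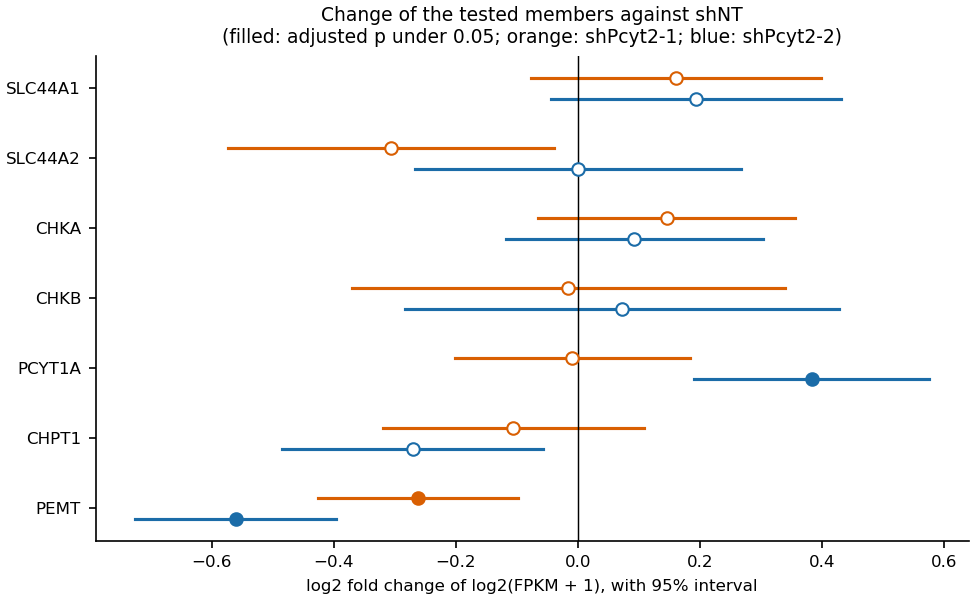
Fold changes of the 7 tested members on the log2(FPKM + 1) scale (horizontal axis) against shNT, with 95% intervals, for shPcyt2-1 (orange) and shPcyt2-2 (blue), and filled points at a limma adjusted p under 0.05. PEMT is filled for both hairpins (-0.26 and -0.56) and PCYT1A for shPcyt2-2 (0.38).

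Between the hairpins, 1 of the 7 tested members was higher with shPcyt2-2 than with shPcyt2-1 (PCYT1A) and 1 was lower (PEMT), where 27.1% of all tested genes were called, 12.9% higher and 14.2% lower. The libraries of the hairpins did not overlap for 4 of 7 members, beside 67.3% of all tested genes. SLC44A2 differed by 0.31, about the size of PEMT, but did not pass (95% interval 0.04 to 0.57, adjusted p = 0.0843, limma). It passed without shPcyt2-2 replicate 2 (0.45, adjusted p = 0.0414, limma), under median-ratio scaling (0.32, adjusted p = 0.0456, limma) and with the trend on GC content and length removed (0.35, adjusted p = 0.0241, limma). With the 4 knockdown libraries pooled against shNT, 0 of the 7 members were called by limma, 1 (PEMT) at an unadjusted p under 0.05, where 0.00784% of all tested genes (1 gene, lower) were called and 16.7% had an unadjusted p under 0.05. All 4 knockdown libraries had less PEMT than either shNT library, at a log2 fold change of -0.41 (standard error 0.12, adjusted p = 0.193, limma), and all 4 had more SLC44A1, at 0.18 (standard error 0.10, adjusted p = 0.421, limma). Members without overlap in that comparison were 2 of 7, beside 30.2% of all tested genes. In the pooled fit the gap between the hairpins counts as spread. The mean of both hairpins from the fit with 3 groups gave PEMT a limma adjusted p of 0.00674 at the same -0.41. That comparison called 2142 of the 12756 tested genes.

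Levels of members were also set against those of the parallel enzymes of the phosphatidylethanolamine branch, within each library. PCYT1A relative to PCYT2 was 0.548 and 0.450 in the shNT libraries, 0.878 and 0.846 in shPcyt2-1, and 1.28 and 1.35 in shPcyt2-2. The choline enzyme was thus the less abundant transcript of the pair in shNT and shPcyt2-1 and the more abundant in shPcyt2-2. PCYT2 is the gene the hairpins target, so its lower level raises the ratio by itself. PCYT1A averaged 6.28 FPKM in shNT, 6.23 FPKM in shPcyt2-1 and 8.50 FPKM in shPcyt2-2, so both terms of the ratio differed from shNT in shPcyt2-2. CHPT1 relative to CEPT1, a phosphotransferase that accepts both activated choline and activated ethanolamine, was 1.43 and 1.88 in shNT, 1.24 and 1.14 in shPcyt2-1, and 1.10 and 1.12 in shPcyt2-2. The shNT libraries lay above the other 4. CEPT1, the denominator, averaged 9.18 FPKM in shNT, 11.7 FPKM in shPcyt2-1 and 11.1 FPKM in shPcyt2-2, which lowers the ratio by itself. CHPT1 averaged 15.1, 13.9 and 12.3 FPKM in the same order and was called with neither hairpin. The 8 members summed to 80.0 ± 2.93 FPKM in shNT, 74.6 ± 3.72 FPKM in shPcyt2-1 and 70.6 ± 1.77 FPKM in shPcyt2-2 (SD, n = 2 each), and PEMT made up 41.6%, 37.0% and 31.5% of those sums. CHKA relative to CHKB averaged 3.35 ± 0.745, 3.82 ± 1.08 and 3.37 ± 0.750 in the same order (SD, n = 2 each), a difference within the spread of replicates. These ratios are values per library and were not tested.

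The regions just upstream of the annotated starts are shown for PCYT1A and PEMT, the members called with at least 1 hairpin. They are RefSeq sequences (GRCh38.p14) of 250 bases before a start, 5′ to 3′ on the minus strand, and RefSeq gave such windows for 7 of the 8 members. Capitals mark matches on either strand to 5 short motifs. The GC box, read by Sp1 and related factors, was spelled GGGCGG. The E-box of the MYC and SREBP families of factors was spelled CACGTG. The CCAAT box, bound by NF-Y, was spelled as its name says. The sterol response element, through which SREBP factors act on lipid genes, was spelled TCACNCCAC. The TATA box of the core promoter was spelled TATAAA.
PCYT1A, chr3:196287727-196287976: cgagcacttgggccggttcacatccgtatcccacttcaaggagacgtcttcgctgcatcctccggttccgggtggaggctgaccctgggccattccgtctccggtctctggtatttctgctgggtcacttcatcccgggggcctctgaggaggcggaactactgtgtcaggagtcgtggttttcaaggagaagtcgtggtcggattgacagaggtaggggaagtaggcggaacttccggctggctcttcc
PEMT start 1, chr17:17591709-17591958: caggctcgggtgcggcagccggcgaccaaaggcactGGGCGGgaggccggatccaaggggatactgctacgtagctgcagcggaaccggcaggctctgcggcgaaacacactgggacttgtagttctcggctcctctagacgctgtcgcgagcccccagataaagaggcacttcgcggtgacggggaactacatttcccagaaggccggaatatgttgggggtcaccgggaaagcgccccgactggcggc
PEMT start 2, chr17:17582447-17582696: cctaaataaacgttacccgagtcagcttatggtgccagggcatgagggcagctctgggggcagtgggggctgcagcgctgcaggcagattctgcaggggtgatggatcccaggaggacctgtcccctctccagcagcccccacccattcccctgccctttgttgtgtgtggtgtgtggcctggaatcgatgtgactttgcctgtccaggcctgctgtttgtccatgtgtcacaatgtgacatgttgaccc
PEMT start 3, chr17:17577497-17577746: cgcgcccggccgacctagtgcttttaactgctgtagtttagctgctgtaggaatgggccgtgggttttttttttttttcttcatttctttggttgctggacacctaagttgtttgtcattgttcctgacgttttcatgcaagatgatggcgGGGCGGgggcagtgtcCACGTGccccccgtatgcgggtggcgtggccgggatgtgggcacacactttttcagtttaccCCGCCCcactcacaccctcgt

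None of the 5 motifs was matched in the PCYT1A window, whose GC content was 59.6%. That window precedes a RefSeq start and lies mostly inside the GENCODE locus of PCYT1A, which reaches 196287957. It is thus not the region upstream of the outermost GENCODE start. The window at the outermost PEMT start (64.4% GC) held 1 GC box, the second (58.8% GC) held no match, and the third (54.4% GC) held 2 GC boxes and 1 E-box. Among 35116 RefSeq windows of the same length, 42.6% held a GC box, 6.34% an E-box, 32.0% a CCAAT box, 0.883% a sterol response element and 10.7% a TATA box. The values here are per gene and do not tell which of the PEMT starts was used.

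By pattern over the 6 libraries, the 3 protein-coding genes nearest to PCYT1A among 7461 genes were IL10RB, RTN4 and TFB1M, at root mean square differences of 0.023, 0.023 and 0.025 in centred log2(FPKM + 1). IL10RB, for example, averaged 14.2, 14.1 and 19.0 FPKM in shNT, shPcyt2-1 and shPcyt2-2. Nearest to PEMT were RCC1, ZFAND2B and PPP1R9B, at 0.045, 0.050 and 0.056. RCC1 averaged 69.0, 57.7 and 47.1 FPKM in the same order.

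Genes around the branch were counted from 6 lists, which held 58 genes, 50 of them tested. The lists were chosen with earlier results of these data known, so their counts only describe. With shPcyt2-1, 13 of the 50 were higher and 6 lower, and with shPcyt2-2, 4 were higher and 2 lower, beside 16.5% higher and 10.1% lower, and 7.69% and 4.74%, of all tested genes. In the phosphatidylethanolamine branch (8 of 8 tested), 3 were higher and 1 lower with shPcyt2-1, and 1 was higher and 1 lower with shPcyt2-2, the lower one being PCYT2 in both. ETNK1, the kinase that starts that branch, was at 13.9 and 12.4 FPKM in shNT, 19.5 and 18.3 FPKM in shPcyt2-1, and 20.6 and 17.6 FPKM in shPcyt2-2. It rose by 0.50 on the log2 scale with each hairpin (adjusted p = 0.00739 and 0.0149, limma), and the second call was lost without shNT replicate 2 or shPcyt2-2 replicate 1 (adjusted p up to 0.110, limma). CEPT1 rose with shPcyt2-1 (0.32, adjusted p = 0.0466, limma), as did PISD (0.24, adjusted p = 0.0495, limma), which makes phosphatidylethanolamine in mitochondria. The CEPT1 call held in 1 and the PISD call in 0 of the 6 fits that left out a library. SELENOI, the ethanolamine phosphotransferase, was at 0.29 (adjusted p = 0.0649, limma) and 0.21 (adjusted p = 0.203, limma), and ETNK2 and PTDSS2 passed with neither hairpin. PTDSS1, which makes phosphatidylserine from phosphatidylcholine, was at 0.24 with shPcyt2-1 and -0.18 with shPcyt2-2, neither of which passed, while the difference of -0.42 did (adjusted p = 0.0148, limma), except without shPcyt2-1 replicate 1 or shPcyt2-2 replicate 2 (adjusted p up to 0.121, limma).

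**Figure D4:**
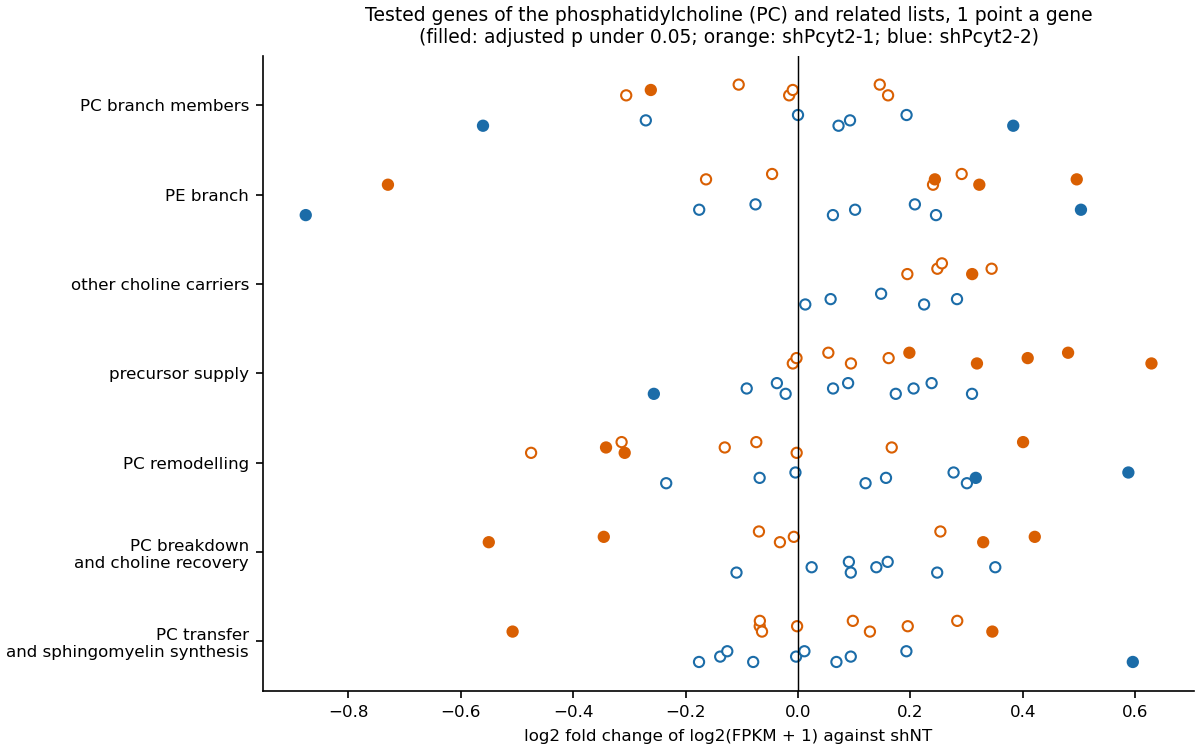
Fold changes on the log2(FPKM + 1) scale against shNT (horizontal axis) of every tested gene of the phosphatidylcholine (PC) branch and 6 related lists, with 1 point per gene, orange for shPcyt2-1 and blue for shPcyt2-2, filled at a limma adjusted p under 0.05. In the precursor supply list, 5 of 10 genes are called higher with shPcyt2-1 and 0 with shPcyt2-2, where 16.5% and 7.69% of all tested genes are. Over all 6 lists, 13 and 4 of the 50 tested genes are called higher. The lists were chosen with earlier results of these data known.

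Among genes that supply CTP, diacylglycerol and methyl groups to the branch (10 tested), 5 were higher and 0 lower with shPcyt2-1, and 0 were higher and 1 lower with shPcyt2-2, where 4 of 10 had an unadjusted p under 0.05, as had 31.1% of all tested genes. Of all tested genes, 26.7% were called with shPcyt2-1 and 12.4% with shPcyt2-2. LPIN1, LPIN2 and LPIN3, the phosphatases that make diacylglycerol, were called with neither hairpin. CTPS1 and CTPS2, the CTP synthases, rose by 0.41 (adjusted p = 0.00456, limma) and 0.63 (adjusted p = 0.00638, limma) with shPcyt2-1, and MAT2B, a subunit of the enzyme that makes S-adenosylmethionine, by 0.48 (adjusted p = 0.00770, limma). These calls held with each library left out. With shPcyt2-2 the same genes were at 0.21, 0.24 and 0.31 and did not pass, and the difference between the hairpins passed for CTPS2 (-0.39, adjusted p = 0.0364, limma) and not for CTPS1 or MAT2B. The CTPS2 difference was lost without either shPcyt2-1 library or without shPcyt2-2 replicate 2 (adjusted p up to 0.187, limma). NME1 rose by 0.32 with shPcyt2-1 (adjusted p = 0.0046, limma), a call lost without shPcyt2-1 replicate 1, and was at 0.09 with shPcyt2-2. AHCY, which clears the by-product of methylation, was called higher with shPcyt2-1 as well, and NME2 was the gene called lower with shPcyt2-2.

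In the list of other choline carriers (5 tested), 1 was called higher with shPcyt2-1, beside 26.7% of all tested genes called. It was MFSD2A, which carries lysophosphatidylcholine rather than free choline. MFSD2A rose by 0.31 with shPcyt2-1 (adjusted p = 0.0387, limma) and was at 0.28 with shPcyt2-2 (adjusted p = 0.0777, limma). Its first call held in 2 of the 6 fits that left out a library. With shPcyt2-2, 0 of the 5 carriers were called by limma and 1 had an unadjusted p under 0.05, beside 12.4% and 31.1% of all tested genes. SLC44A3, SLC44A5, SLC22A5 and FLVCR1 were called with neither hairpin.

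Of 9 tested enzymes that exchange the fatty acids of phosphatidylcholine, 1 was higher and 2 lower with shPcyt2-1, and 2 were higher and 0 lower with shPcyt2-2, beside 26.7% and 12.4% of all tested genes called. LPCAT3, which puts polyunsaturated chains into phosphatidylcholine, rose with shPcyt2-1 (0.40, adjusted p = 0.0114, limma) and with shPcyt2-2 (0.32, adjusted p = 0.0454, limma). The first call was lost without shPcyt2-1 replicate 1 (adjusted p up to 0.0631, limma), and the second held in 1 of 6 such fits. LPCAT2 was at 4.95 and 4.40 FPKM in shNT, 4.66 and 4.12 FPKM in shPcyt2-1, and 7.85 and 7.20 FPKM in shPcyt2-2. It rose by 0.59 with shPcyt2-2 (adjusted p = 0.0111, limma), a call lost without shNT replicate 2 or shPcyt2-2 replicate 1, and differed between the hairpins by 0.66 (adjusted p = 0.00222, limma), which held with each library left out. LPCAT4 fell by 0.34 with shPcyt2-1 (adjusted p = 0.0130, limma), a call lost without shNT replicate 2 or shPcyt2-1 replicate 1, and was at 0.12 with shPcyt2-2. MBOAT2 fell with shPcyt2-1 (-0.31, adjusted p = 0.0447, limma) and was at -0.004 with shPcyt2-2. Its call held in 2 of the 6 fits that left out a library.

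Of 8 tested genes that break phosphatidylcholine down or recover its choline, 2 were higher and 2 lower with shPcyt2-1, and 0 were called by limma with shPcyt2-2, where 2 had an unadjusted p under 0.05. The shares over all tested genes were 26.7% and 12.4% called, and 31.1% at an unadjusted p under 0.05 with shPcyt2-2. PNPLA7, a lysophospholipase, was at 4.42 and 5.43 FPKM in shNT, 3.07 and 2.98 FPKM in shPcyt2-1, and 5.90 and 5.30 FPKM in shPcyt2-2. It fell by 0.55 with shPcyt2-1 (adjusted p = 0.00933, limma), lost without shNT replicate 2 (adjusted p up to 0.0585, limma). GDE1 and GPCPD1, which act on glycerophosphodiesters, were called higher and PHOSPHO1, a phosphocholine phosphatase, was called lower with shPcyt2-1, and these calls held in 3, 2 and 2 of the 6 fits that left out a library.

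Of 10 tested genes of phosphatidylcholine transfer and sphingomyelin turnover, 1 was higher and 1 lower with shPcyt2-1, and 1 was higher and 0 lower with shPcyt2-2, beside 26.7% and 12.4% of all tested genes called. STARD10, a phosphatidylcholine transfer protein, was at 100 and 105 FPKM in shNT, 70.6 and 72.9 FPKM in shPcyt2-1, and 97.4 and 96.4 FPKM in shPcyt2-2. It fell by 0.51 with shPcyt2-1 (adjusted p = 0.00110, limma) and was at -0.08 with shPcyt2-2, and the difference of 0.43 (adjusted p = 0.00118, limma) held with each library left out. SAMD8, an enzyme related to the sphingomyelin synthases, rose by 0.60 with shPcyt2-2 (adjusted p = 0.0240, limma), a call that held in 3 of 6 such fits, and SMPD4, a sphingomyelinase, rose by 0.35 with shPcyt2-1 (adjusted p = 0.0152, limma), a call lost without either shPcyt2-1 library.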

How the data were processed

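RNA-Seq was performed in 6 SW480 libraries, and 1 table per library was used. The authors deposited normalized values per Ensembl gene, taken here as FPKM because they are not whole numbers, and TPM over part of the genes cannot be told apart from FPKM. Genes at 0 are not listed. The submitters' notes name the builds GRCh 38, GRCm 38 and mm 10 without roles, all identifiers are human, and the aligner and counter are not given in the sources used here. 2 library kits are named in the labels, with no word on which library each made, so kit and group cannot be told apart. The study's methods used a count-based test, which these values cannot take.

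Repeated rows were summed for 115 of 21539 identifiers. Identifiers that shared the same values, above 0 in at least 3 libraries, were merged into 1 gene (999 groups), which left 19746 genes (19437 named by GENCODE release 29). The 12756 genes with a mean of at least 0.5 FPKM entered the fits, made by limma 3.58.1 (R 4.3.3) after a log2(FPKM + 1) transform, with a variance trend and Benjamini-Hochberg adjustment, called at an adjusted p under 0.05. Single hairpins and their difference came from a fit with 3 groups, the pooled comparison from a fit with 2. The fits were also run on simulated data, with independent normal noise and equal shifts in both hairpin groups. That setting holds no difference between the hairpins, unlike these data, and its outcome is not given here. The members and lists were chosen with earlier results of these data known. Named were all members, the phosphatidylethanolamine branch, and up to 4 called genes per other list with the largest changes; AHCY, NME2, PNPLA8, STARD7 and the 3 lipins fall outside that rule and were picked with their values in view. Nearest patterns were searched among genes with a mean of at least 5 FPKM. No counting interval can be given, as depth is unknown. Alternatives covered the pseudocount (0.1), the limit (none or 1 FPKM), a replicate block, each library left out, median-ratio scaling, no variance trend, repeated rows, GC content and length, and the mean of 2 hairpins. CHKB with CHKB-CPT1B added was chosen after seeing the data. Figures were drawn with matplotlib 3.10.9.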

Additional observations from a re-analysis of the deposited data

Results flagged for a closer look

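A difference between the 2 hairpins passed the limma test (adjusted p under 0.05) for 12 of the 32 genes that the naming rule gave (PCYT1B was not tested), many of them named for a called change, beside 27.1% of all tested genes. It is given here as the log2 fold change of shPcyt2-2 over shPcyt2-1. Among the phosphatidylcholine branch members, PCYT1A was higher with shPcyt2-2 by 0.39 and PEMT was lower (-0.30). Of the neighbouring genes, those higher with shPcyt2-2 were PNPLA7 (0.71), LPCAT2 (0.66), LPCAT4 (0.46), STARD10 (0.43), PHOSPHO1 (0.37) and MBOAT2 (0.30), and those lower were PTDSS1 (-0.42), CTPS2 (-0.39), SMPD4 (-0.25) and NME1 (-0.23). Outside the rule, PNPLA8 was higher (0.41, adjusted p = 0.0407, limma). NME2 (-0.25, adjusted p = 0.00673, limma), STARD7 (-0.24, adjusted p = 0.0350, limma) and AHCY (-0.22, adjusted p = 0.0140, limma) were lower. That makes 7 higher and 7 lower of the 50 tested list genes. No fits with a library left out are given for the genes outside the rule. The calls of PNPLA7, LPCAT2, LPCAT4 and STARD10 held with each library left out. Those of MBOAT2, PHOSPHO1, SMPD4 and NME1 held in 2 of 6 such fits.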

How the results depend on the processing

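Depth is unknown and each group has 2 libraries, which limits the precision of every value. The replicate numbers showed no clear pairing of the libraries. Correlations of deviations from group means were 0.0027 (shNT and shPcyt2-1), 0.062 (shNT and shPcyt2-2) and 0.19 (shPcyt2-1 and shPcyt2-2). With the replicate block, 3884 genes were called with shPcyt2-1, 2029 with shPcyt2-2, 3869 between the hairpins and 0 in the pooled comparison, where the reported fit called 1, and no call of a member changed. The pooled count was also 0 with a pseudocount of 0.1 or a limit of 1 FPKM, 7 with no filter, 2142 from the mean of the 2 hairpins, and 0 to 1 with a library left out. With no filter, shPcyt2-1 called 1831 genes and shPcyt2-2 called 124, beside 3400 and 1585 as reported, and with no variance trend shPcyt2-2 called 1027. With each library left out, the counts were 1147 to 3256 with shPcyt2-1, 125 to 1893 with shPcyt2-2 and 1662 to 3785 between the hairpins. In such fits a group of 1 library is assumed to vary like the others, and fewer samples enter.

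Called members with shPcyt2-1 were 1 as reported, 0 with no filter or no variance trend, 2 with median-ratio scaling, and 0 to 2 with a library left out. With the trend on GC content and length removed it was 1, with PEMT lost and SLC44A2 gained. With shPcyt2-2 they were 2 as reported, 1 with no filter, 3 with median-ratio scaling or with the trend on GC content and length removed, and 0 to 2 with a library left out. Between the hairpins the count was 2 as reported, 3 with median-ratio scaling or with the trend on GC content and length removed, and 0 to 2 with a library left out, and 1 in the pooled comparison from the mean of the 2 hairpins. Over all tested genes, median-ratio scaling called 3180 with shPcyt2-1, 1642 with shPcyt2-2 and 3533 between the hairpins. With the trend on GC content and length removed (12739 genes tested), these counts were 3420, 1782 and 4641. As reported they were 3400, 1585 and 3463. PCYT1A and PCYT2 have no repeated rows, so taking the highest of repeated rows could not change their ratio.

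Some log2 fold changes that passed no test changed sign, and the cause was not tested. With the trend on GC content and length removed, SLC44A1 was at -0.033 with shPcyt2-1, -0.0071 with shPcyt2-2 and -0.020 pooled, CHKB at 0.051 with shPcyt2-1, GDE1 at -0.030 and PTDSS2 at 0.012 with shPcyt2-2. With median-ratio scaling, CHKB was at -0.024 pooled, and SLC44A2 at -0.042 and PHOSPHO1 at -0.0066 with shPcyt2-2. With CHKB-CPT1B added, CHKB was at -0.017 with shPcyt2-2 and -0.020 pooled, and with a pseudocount of 0.1 SLC44A2 was at -0.0023 with shPcyt2-2. With each library left out, ranges that cross 0 were -0.21 to 0.18 (shPcyt2-1), -0.093 to 0.24 (shPcyt2-2), -0.055 to 0.11 (pooled) and -0.11 to 0.28 (between hairpins) for CHKB, -0.083 to 0.15 between hairpins for SLC44A1, -0.026 to 0.0076 with shPcyt2-1 for PCYT1A and -0.13 to 0.038 with shPcyt2-1 for ETNK2. With shPcyt2-2 they were -0.019 to 0.20 for CHKA, -0.14 to 0.14 for SLC44A2, -0.086 to 0.077 for MBOAT2, -0.016 to 0.065 for PHOSPHO1, -0.15 to 0.0019 for PTDSS2 and -0.0078 to 0.20 for SMPD4. Over members and comparisons, 353 values kept direction and side of the threshold, 24 reversed, 10 gained and 16 lost the call.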

Other observations

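SELENOI and CEPT1, which both act at the last step of phosphatidylethanolamine synthesis, had nearly the same level per length in every library. SELENOI was at 10.002 and 8.46 FPKM in shNT, 11.7 and 11.3 FPKM in shPcyt2-1, and 11.6 and 10.05 FPKM in shPcyt2-2. CEPT1 was at 9.96 and 8.40 FPKM, 11.9 and 11.5 FPKM, and 11.8 and 10.3 FPKM in the same libraries. The 2 genes lie on different chromosomes. CPT1B, the neighbour into which the CHKB readthrough runs, was at 2.08 and 1.91 FPKM in shNT, 2.88 and 1.38 FPKM in shPcyt2-1, and 2.10 and 2.01 FPKM in shPcyt2-2, so that shPcyt2-1 replicate 1 was high and replicate 2 low for both CHKB and CPT1B.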
